A study of Mus musculus with 31 samples.

Results

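The Ikaros family of zinc finger transcription factors has 5 members in the mouse, Ikzf1 (Ikaros), Ikzf2 (Helios), Ikzf3 (Aiolos), Ikzf4 (Eos) and Ikzf5 (Pegasus). Their rows were taken by symbol from 2 tables of raw gene counts, one of thymus and one of lung libraries. All 5 genes were found in both tables, as 5 of 48881 rows in each, and all 5 passed the filter on low counts in each table. They are described here in DN1 and DN3 thymocytes before and after deletion of the E proteins E2A and HEB, and in group 2 innate lymphoid cells (ILC2) isolated from mice.

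Ikaros proteins bind DNA through N-terminal zinc fingers, recognise a GGGAA core, and pair with one another through C-terminal zinc fingers. Ikaros, Helios, Aiolos and Eos recruit chromatin complexes such as NuRD and the CtBP and Sin3 corepressors, and they can repress or activate genes. Ikaros is required for normal lymphoid development and restrains Notch target genes in thymocytes. Helios is best known in regulatory T cells and early T cell progenitors, Aiolos in maturing B and T cells, and Eos in regulatory T cells. Pegasus is the most divergent member and binds different DNA sequences. Cereblon (Crbn), the substrate receptor of a CRL4 ubiquitin ligase, can direct Ikaros and Aiolos to degradation when bound by thalidomide-type drugs.

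All mice were of the C57BL/6 strain, and ages are not given. DN1 and DN3, an earlier and a later stage of CD4- CD8- thymocytes, were grown on OP9-DL1 stroma, a bone marrow-derived line that presents a Notch ligand, with stem cell factor and the cytokines IL-7 and IL-2. Every culture carried R26-CreERT2, a Cre that works once 4-hydroxytamoxifen (4-OHT) is present, and R26-stop-tdTomato, a reporter switched on by Cre. Cells called floxed also carried E2Af/fHEBf/f, the floxed alleles of E2A (Tcf3) and HEB (Tcf12), whereas control cells had none. Libraries came from day 4, before 4-OHT and without a sort, and from cells sorted for tdTomato at days 5 and 7 (12 groups, n = 2 each). The controls of days 5 and 7 had therefore met 4-OHT and Cre as well. Thymic ILC2 (n = 2) and one set of lung ILC2 (n = 2), called dKO, came from plck-Cre;E2Af/fHEBf/f mice, in which Cre is driven by the proximal Lck promoter, active in developing T cells. The other lung ILC2 (n = 3) came from mice with plck-Id1, a transgene for Id1, an inhibitor of E proteins. No ILC2 of wild-type mice were analysed here. The labels do not say whether replicates were separate animals or cultures, so the p-values measure the spread between these libraries, which may be technical.

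Libraries held 3695522 to 13065445 counts. Tcf12, the transcript of HEB, was lower in floxed than in control cells from day 5 on (log2 change -0.98 ± 0.10 and -1.33 ± 0.10 in DN1, -0.68 ± 0.10 and -1.66 ± 0.10 in DN3, on days 5 and 7), and Tcf3 passed on day 7 only (-1.64 ± 0.37 and -2.03 ± 0.38). Here and below ± is a standard error, and adjusted p is edgeR's, corrected over every gene tested, with 0.05 as the threshold. Culture genotypes also differed in sex-linked RNA, with Xist at 588 to 1901 CPM, the counts scaled to a common library total, in 12 floxed libraries and 4.55 to 71.4 in 12 controls. Genotype and sex therefore cannot be told apart in the cultures. The 11 stromal markers together made up 1303 to 6865 CPM on day 4 and 47.5 to 178 on days 5 and 7. On day 4 they differed by genotype without overlap. They were at 4902 and 5958 CPM in floxed against 6667 and 6865 in control DN1 libraries, and at 1970 and 2243 against 1303 and 1486 in DN3. Their part in the day 4 genotype differences, and in changes of these from day 4 to day 7, was not tested. Replicate b of DN1 floxed cells on day 7 held 7754 CPM of skeletal muscle markers, against 61.2 in replicate a.

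Of the 5 genes, 2 matched the RefSeq table of sequences at gene starts (GRCm38.p6, the mm10 assembly). Ikzf1 is shown because it was the most abundant member per kilobase of exon in every group, by group mean. Ikzf5 is shown because it was the member lower in floxed than in control cells of both precursors on day 7. Capitals mark GGGAA or its complement TTCCC. Each sequence lies before the start on the gene's strand, and the Ikzf5 sequence stops where the GENCODE exons of Ikzf5 begin.
Ikzf1, chr11:11689927-11690176, plus strand: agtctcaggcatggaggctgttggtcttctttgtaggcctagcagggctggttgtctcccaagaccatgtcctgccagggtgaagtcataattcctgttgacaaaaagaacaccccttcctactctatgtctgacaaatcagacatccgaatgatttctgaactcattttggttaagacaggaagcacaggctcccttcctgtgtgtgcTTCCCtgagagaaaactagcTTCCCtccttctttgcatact
Ikzf5, chr7:131410522-131410728, minus strand: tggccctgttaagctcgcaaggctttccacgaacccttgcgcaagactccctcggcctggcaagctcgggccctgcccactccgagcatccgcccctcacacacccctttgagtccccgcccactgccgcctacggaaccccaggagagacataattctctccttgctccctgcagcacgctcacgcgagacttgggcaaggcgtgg
The Ikzf1 sequence is upstream of the second of 2 starts and holds 2 matches to GGGAA, and the 250 bases before the first start hold 0. The Ikzf5 stretch of 207 bases printed holds 0, and its whole window of 250 bases holds 1. GGGAA, searched on both strands, occurs in 56.2% of 32851 windows of 250 bases before gene starts. The E-box CANNTG, whose letters read the same on both strands and which can share an end base with GGGAA, is in 66.2% of those windows. It was not found in the 250 bases before either Ikzf1 start or the Ikzf5 start. These are descriptions of letters in short windows.

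The family as a whole was compared per kilobase of exon, a scale used to set levels of different genes side by side. For Ikzf5, 81.3% of the exon length is shared with Pstk, a gene on the opposite strand. The strand setting of the counting is not given. The Ikzf5 level on this scale, and with it the ranks, sums and shares, depends on how shared reads were counted, which was not tested. Ikzf1 ranked first by group mean in all 15 groups, with 50.8% to 63.7% of the family's CPM per kb in the groups of days 5 and 7 and the ILC2. In control cultures and in all day 4 cultures Ikzf5 came second. In floxed cells of days 5 and 7 Ikzf2 came second instead, in both precursors. In DN3 cells Ikzf2 made up 7.70% of family RNA on day 5 and 14.8% on day 7 in controls, against 24.4% and 29.1% in floxed cells. In DN1 cells the Ikzf2 share was 12.4% and 15.0% in controls, against 21.1% and 26.7%. Over the same days the Ikzf5 share was 21.2% and 22.5% in DN3 controls against 14.3% and 11.7% in floxed cells, and 26.6% and 22.7% against 17.1% and 11.9% in DN1. The summed level was also higher in floxed cells: 102.8 and 106.3 CPM per kb in DN1 on day 7 against 78.1 and 78.3 in controls, and 109.4 and 114.5 against 90.5 and 91.7 in DN3. None of these 4 floxed libraries overlapped its controls in the sum. DN1 sums were already apart on day 4, before 4-OHT, at 44.01 and 46.56 in floxed against 37.56 and 39.45 in controls. The DN1 Ikzf2 share was 15.28% and 17.28% then against 10.96% and 11.09%. The DN1 Ikzf5 share was 29.36% and 30.48% against 34.53% and 36.35%. Shares are parts of 1 sum, so a rise of one lowers the others. The day 4 level of Ikzf5 itself overlapped in DN1, at 12.92 and 14.19 CPM per kb in floxed against 12.97 and 14.34 in controls. In DN3 the day 4 sum was lower in floxed cells, at 74.03 and 74.78 against 76.69 and 78.46. Both shares overlapped between DN3 genotypes on that day. Stromal markers differed by genotype on day 4 in both precursors, and their part in the day 4 sums was not tested. In bulk RNA, fewer cells of a type and less RNA per cell cannot be told apart.

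**Figure D1:**
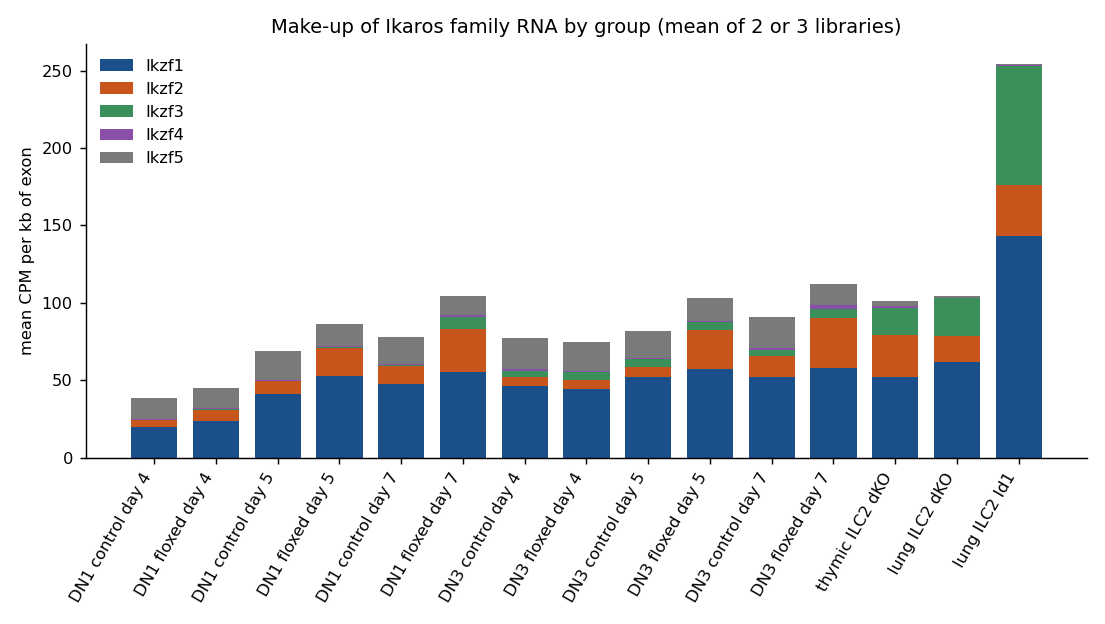
Mean CPM per kb of exon of the 5 genes (y axis), stacked by gene, for each of 15 groups (x axis). Each bar is the mean of 2 libraries, or 3 for lung ILC2 Id1. The Ikzf2 segment is wider in floxed than in control bars on days 5 and 7, and in DN1 also on day 4. Ikzf3 forms a wide segment in the ILC2 bars, 29.2% of the total in lung ILC2 Id1.

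Ikzf2, which encodes Helios (chromosome 1, 69531214 to 69687245, minus strand, mm10), was higher in floxed than in control cells on both days after 4-OHT and in both precursors. In DN3 it was at 267 and 319 CPM in floxed cells against 64.7 and 81.7 in controls on day 5, and at 359 and 395 against 144.5 and 168.5 on day 7. In DN1 the levels were 164 and 265 against 96.1 and 102 on day 5, and 305 and 344 against 123 and 149 on day 7. The groups did not overlap in any of the 4 comparisons. The log2 change in DN3 was 1.94 ± 0.18 on day 5 (3.84-fold, adjusted p = 9.47e-07) and 1.34 ± 0.17 on day 7 (2.53-fold, adjusted p = 1.21e-05). In DN1 it was 1.08 ± 0.17 (2.11-fold, adjusted p = 0.000817) and 1.31 ± 0.17 (2.48-fold, adjusted p = 2.18e-05). Without replicate b of the floxed cells, the DN1 day 5 change was 0.69 (adjusted p = 0.0379). Ikzf2 shares 144 bp of exon, 1.24% of its own, with the antisense gene Gm29114, whose group means were at most 0.187 CPM in the cultures and 23.1 CPM in thymic ILC2.

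Before 4-OHT, the Ikzf2 levels of DN3 cells overlapped between genotypes, at 67.6 and 70.2 CPM in floxed and 63.1 and 71.9 in control libraries. In DN1, floxed libraries were at 78.1 and 93.4 CPM on day 4 against 48.4 and 50.2, without overlap. That difference of 0.80 ± 0.18 missed the threshold (adjusted p = 0.114), yet passed with DESeq2 (adjusted p = 0.0056), without a low count filter (4.64e-07) and with only these groups fitted (0.022). The growth of the genotype difference from day 4 to day 7 passed in DN3 (1.29 ± 0.25, adjusted p = 0.00177) and not in DN1 (0.51 ± 0.25, adjusted p = 0.223). Stromal markers were lower in floxed than in control DN1 libraries on day 4, and their part in the Ikzf2 values was not tested. On day 5 the DN1 change was smaller than the DN3 change by 0.86 ± 0.24, which missed the threshold (adjusted p = 0.0937) but passed with DESeq2 (0.0295), without a filter (0.000375) and without replicate b of DN1 floxed cells (0.0111). On day 7 the precursors differed by -0.02 ± 0.24 (adjusted p = 0.99). Ikzf2 also rose with time in DN3 controls between days 5 and 7, by 1.05 ± 0.18 (adjusted p = 0.000311).

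Ikzf3, which encodes Aiolos (chromosome 11, 98464902 to 98546031, minus strand), was nearly silent in DN1 cells and rose in floxed DN1 cells between days 5 and 7. DN1 controls had 0.835 and 0.999 CPM on day 4, 1.04 and 1.14 on day 5, and 1.70 and 0.499 on day 7, from 4 to 14 counts a library. Floxed DN1 cells had 1.69 and 2.83 CPM on day 5 and 66.2 and 73.5 on day 7, from 515 and 552 counts. The 2 floxed libraries of day 7 stood apart from every other DN1 library. The day 7 difference was 6.02 ± 0.55 (65.0-fold, adjusted p = 4.43e-07), and the rise from day 5 within floxed cells was 4.95 ± 0.51 (31.0-fold, adjusted p = 4.84e-06). On day 5 the difference was 1.01 ± 0.82 (adjusted p = 0.597). With 18 counts over both day 7 controls, pooled level 1.11 CPM (95% exact Poisson interval 0.656 to 1.75, counting error only), the size of the fold is loose: the log2 change was 7.14 without control c and 5.41 without control d. The change was 5.92 without the library rich in muscle markers. In the same day 7 libraries ILC2 markers summed to 2076 and 2507 CPM in floxed against 454 and 498 in control cells, with 10 to 12 of 12 detected, early T cell markers to 834 and 1155 against 2081 and 2153, and NK markers to 379 and 642 against 1388 and 1433. Of 6 NK markers, 3 to 4 were detected in the floxed and in the control libraries. The part of these cell types in the Ikzf3 value was not tested.

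In DN3 cells Ikzf3 was present throughout, at 33.9 to 49.5 CPM in the 12 libraries, and no genotype difference passed. The day 7 values were 45.9 and 49.5 CPM in floxed against 36.4 and 37.1 in control libraries (0.44 ± 0.37, adjusted p = 0.439, or 0.0162 with only these groups fitted). Ikzf3 was thus lower in DN1 than in DN3 controls, by 5.22 ± 0.59 on day 4 (37.3-fold, adjusted p = 1.45e-06) and 5.05 ± 0.56 on day 7 (33.1-fold, adjusted p = 2.3e-06). The genotype difference of day 7 was 5.58 ± 0.69 larger in DN1 than in DN3 (adjusted p = 7.48e-05). On day 7 floxed DN1 cells had a mean of 69.9 CPM, above the 47.7 of floxed DN3 cells, without overlap.

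Replicate a of DN1 floxed cells on day 4 was an exception, at 7.95 CPM (85 counts) where replicate b had 0.307 (2 counts). The day 4 difference was 2.34 ± 0.72 (adjusted p = 0.465), 3.11 without replicate b, where it passed (adjusted p = 0.000175), and -1.53 without replicate a. It also passed without a low count filter (6.76e-08). The growth of the DN1 difference from day 4 to day 7, 3.68 ± 1.15, missed the threshold (adjusted p = 0.056) and was 7.55 without day 4 floxed replicate a (adjusted p = 5.47e-05). It also passed with DESeq2 (0.0115). That library also held 469 CPM of skeletal muscle markers against 23.0 in replicate b, whose part in the Ikzf3 value was not tested.

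Ikzf4, which encodes Eos (chromosome 10, 128630843 to 128645991, minus strand), was at 21.5 CPM or less in every library and rose in floxed DN3 cells on day 7. It was at 15.4 and 21.5 CPM there (91 and 159 counts), against 7.36 and 4.55 in DN3 controls of that day and 5.70 and 5.95 in floxed DN3 cells of day 5. The day 7 libraries were above all other culture libraries. The difference from controls was 1.72 ± 0.28 (3.29-fold, adjusted p = 0.000123), the rise from day 5 was 1.75 ± 0.28 (adjusted p = 0.000101), and the growth of the genotype difference from day 4 to day 7 was 2.44 ± 0.42 (adjusted p = 0.000855). In DN1, floxed cells of day 7 had 6.53 and 7.08 CPM against 5.24 and 5.34 in controls (0.42 ± 0.29, adjusted p = 0.315). Within DN1 floxed cells Ikzf4 rose from 2.83 and 3.25 CPM on day 5 (1.17 ± 0.31, adjusted p = 0.0123), a call lost without either day 5 library (adjusted p = 0.061 and 0.0803). The DN1 change on day 7 differed from the DN3 change by -1.30 ± 0.40, which missed the threshold (adjusted p = 0.0531). It passed without floxed replicate a of DN1 (0.0381), floxed replicate a of DN3 (0.0421) or control c of DN3 (0.0328), and with a replicate block (0.0327). A pattern confined to DN3 was therefore not shown.

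Ikzf5, which encodes Pegasus (chromosome 7, 131388652 to 131410521, minus strand), moved the other way from Ikzf2. On day 7 it was at 72.3 and 77.7 CPM in floxed DN3 cells against 117.0 and 117.3 in controls, and at 64.3 and 77.8 in floxed DN1 cells against 92.8 and 110.6. The groups did not overlap in either precursor. It was lower by 0.58 ± 0.12 in DN3 (1.49-fold, adjusted p = 0.00189) and 0.46 ± 0.12 in DN1 (1.37-fold, adjusted p = 0.0122). The DN1 call was lost without floxed replicate b (adjusted p = 0.139), without control d (0.165) and with only these groups fitted (0.173). On day 5 the changes of -0.36 ± 0.12 in DN1 and -0.31 ± 0.12 in DN3 missed the threshold (adjusted p = 0.113 and 0.133). On day 4 they were -0.01 ± 0.12 and -0.13 ± 0.12 (adjusted p = 0.999 and 0.815). From day 4 to day 7 the genotype difference changed by -0.45 ± 0.18 in DN1 and -0.44 ± 0.17 in DN3. Neither change passed (adjusted p = 0.13 and 0.11). Ikzf5 shares 4652 bp of exon, 81.3% of its own, with Pstk, a kinase gene of selenocysteine synthesis on the opposite strand. The strand setting of the counting is not given, so reads of the pair cannot be told apart. Pstk, named here after its values were seen, had group means of 6.27 to 13.6 CPM in the cultures and passed in none of the 6 genotype comparisons. Its day 7 genotype difference did differ between DN1 and DN3, by -1.11 ± 0.31 (adjusted p = 0.0358). Pstk also rose in floxed DN3 cells from day 5 to day 7, by 0.61 ± 0.22 (adjusted p = 0.0469). The part of Pstk in the Ikzf5 values was not tested.

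Ikzf1, which encodes Ikaros (chromosome 11, 11685003 to 11772926, plus strand), was higher in floxed than in control DN1 cells by a small amount. DN1 floxed cells had 282 and 326 CPM on day 5 against 226 and 249 in controls, and 314 and 322.5 on day 7 against 273 and 278. The groups did not overlap on either day. The changes of 0.32 ± 0.09 (adjusted p = 0.0485) and 0.27 ± 0.09 (adjusted p = 0.0417) were just past the threshold, and both calls were lost without floxed replicate b (adjusted p = 0.476 and 0.226), the library of control c (0.369 and 0.141) or that of control d (0.102 and 0.173). In DN3 the changes of 0.07 ± 0.09 and 0.22 ± 0.09 did not pass (adjusted p = 0.717 and 0.0826). The DN1 genotypes were already apart on day 4, before 4-OHT, without overlap. Floxed libraries had 132.6 and 138.2 CPM then against 115.1 and 116.9 in controls (0.22 ± 0.09, adjusted p = 0.98). From day 4 to day 7 that DN1 difference grew by 0.05 ± 0.13, which did not pass (adjusted p = 0.884). Stromal markers also differed between the DN1 genotypes on day 4, lower in floxed cells, and their part in the Ikzf1 values was not tested. Between precursors, before 4-OHT, Ikzf1 was lower in DN1: DN1 controls had 115 and 117 CPM on day 4 where DN3 controls had 265.5 and 269.7 (-1.17 ± 0.09, adjusted p = 3.34e-08). On day 7 that difference was -0.13 ± 0.09 (adjusted p = 0.325).

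**Figure D2:**
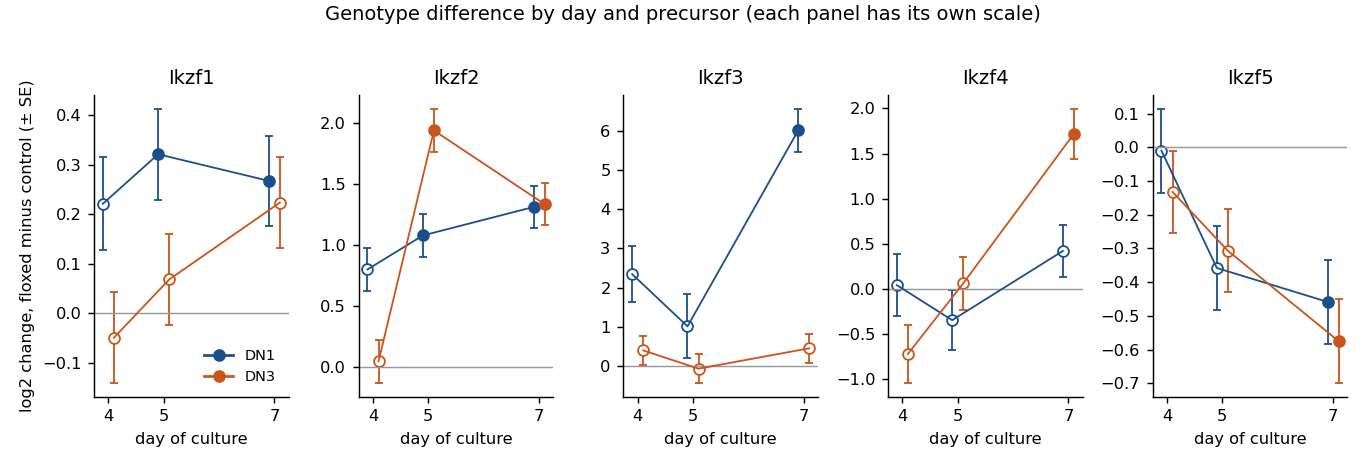
Log2 change of floxed against control cells (y axis, ± SE) by day of culture (x axis) for the 5 genes, DN1 in blue and DN3 in orange, with filled points past the adjusted p of 0.05. Each panel has its own scale. Ikzf2 is above 0 in both precursors on days 5 and 7, Ikzf3 reaches 6.02 in DN1 on day 7, Ikzf4 reaches 1.72 in DN3 on day 7, and Ikzf5 ends below 0 in both.

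Counts of members called stand against the share of all genes called in the same comparison. None of the 5 passed on day 4, when 0.105% of genes passed in DN1 and 0.442% in DN3. On day 5 2 of 5 passed in DN1 (5.02% of all genes) and 1 of 5 in DN3 (9.76%). On day 7 4 of 5 passed in DN1 (22.5% of all genes), 3 higher and 1 lower, and 3 of 5 in DN3 (24.9%), 2 higher and 1 lower. For the change of the genotype difference from day 4 to day 7, 0 of 5 passed in DN1 (7.78%) and 2 of 5 in DN3 (12.3%). For the difference between precursors, 0 of 5 passed on day 5 (1.36%) and 1 of 5, Ikzf3, on day 7 (7.79%). These comparisons reuse the same libraries and are not independent of one another.

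Between days 5 and 7, 0 of 5 members passed in DN1 controls (13.1% of all genes) and 1 of 5, Ikzf2, in DN3 controls (20.3%). In floxed DN1 cells 3 of 5 rose (21.5%): Ikzf3, Ikzf4 and Ikzf2. The Ikzf2 rise was 0.61 ± 0.17 (adjusted p = 0.0157), and 0.29 without day 5 replicate a (adjusted p = 0.267). With only these groups fitted, Ikzf2 (0.223) and Ikzf4 (0.179) lost their calls, leaving 1 of 5, and 133 genes in all passed in place of 3256. In floxed DN3 cells 1 of 5, Ikzf4, rose (24.5%), and the Ikzf2 difference was 0.44 ± 0.17 (adjusted p = 0.0636, or 0.0347 with DESeq2). Between DN1 and DN3 controls 4 of 5 members were lower in DN1 on day 4 (39.7%): Ikzf1, Ikzf3, Ikzf5 (-0.55 ± 0.12, adjusted p = 0.00149) and Ikzf4 (-0.86 ± 0.33, adjusted p = 0.0447). The Ikzf4 call was lost without either DN1 control (0.0947 and 0.198) or without control c of DN3 (0.297), and with DESeq2 (0.127), RLE scaling (0.0505) or no filter (0.0725). Stromal markers moved with that comparison, with sums of 6667 and 6865 CPM for DN1 controls against 1303 and 1486 for DN3, and their part in it was not tested. On day 7, 1 of 5 members passed, Ikzf3 (22.6%), where those markers were at 178 CPM or less in every library.

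**Figure D3:**
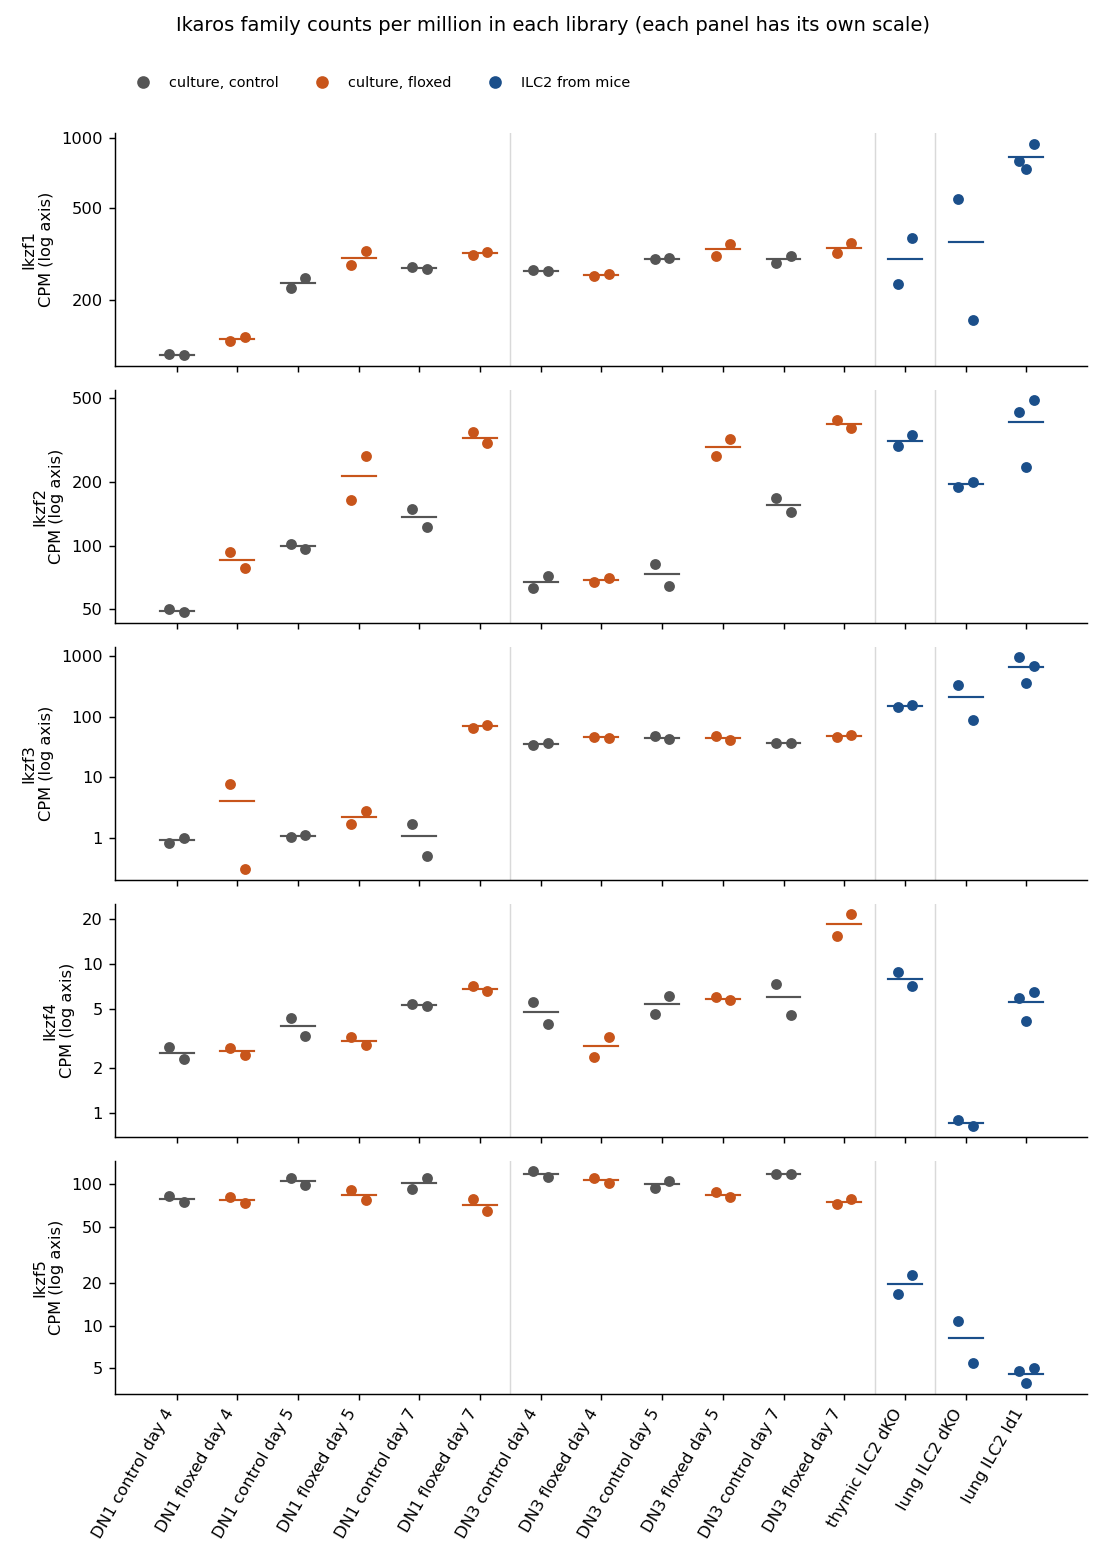
CPM of each gene (log y axis, own scale per panel) in 31 libraries (points) of 15 groups (x axis), with group means as bars. Ikzf3 in DN1 cells stays at or below 7.95 CPM except in floxed cells of day 7, and Ikzf5 is lower in the 3 ILC2 groups than in any culture.

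Ikzf2 and Ikzf5 varied in opposite directions over the 16 culture libraries of days 5 and 7 (Pearson r = -0.80 of log2 CPM), as a description of libraries that share groups. Ikzf1 and Ikzf3 had r = 0.74, and Ikzf2 and Ikzf3 r = 0.42. Among 6180 genes with a mean of at least 20 CPM there, those most like each member in pattern were Sgk1, a kinase (0.95), Klf6, a zinc finger factor (0.95), and Lasp1, an actin-binding protein (0.94), for Ikzf2. For Ikzf3 they were Polg, the mitochondrial DNA polymerase (0.95), Ap3s1, an adaptor complex subunit (0.94), and Tubb2b, a beta tubulin (0.94). For Ikzf4 they were Snupn (0.91), Herpud1 (0.91) and Lrrc8c (0.90), for Ikzf1 Limd2 (0.93), Rasa1 (0.91) and Zswim8 (0.90), and for Ikzf5 Sgpp1, Gid4 and Tcof1 (each 0.89). The median r over all these genes lay between -0.08 and 0.05 for the 5 members.

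**Figure D4:**
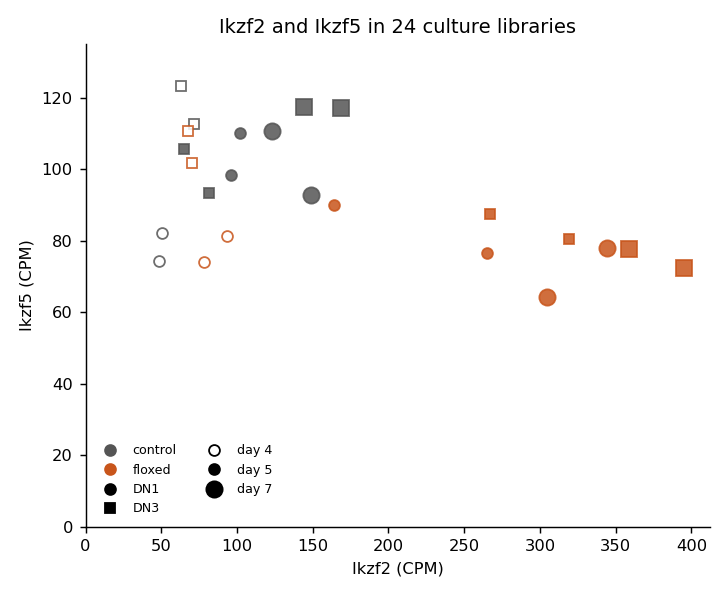
Ikzf2 (x axis, CPM) against Ikzf5 (y axis, CPM) in 24 culture libraries. Circles are DN1 and squares DN3, grey is control and orange floxed, open symbols are day 4, small filled ones day 5 and large ones day 7. Floxed libraries of days 5 and 7 sit at 164 CPM of Ikzf2 or more and 90.0 CPM of Ikzf5 or less.

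Partners and known targets of the family were read from lists chosen with earlier results of these data known. Of 13 NuRD genes, 1 was higher and 1 lower on day 5 in DN1, 1 and 2 on day 5 in DN3, 2 and 3 on day 7 in DN1, and 1 and 0 on day 7 in DN3. The medians of -0.07 to -0.01 stood beside 0.00 to -0.01 over all genes. The shares of all genes called were 5.02%, 9.76%, 22.5% and 24.9% in that order. The DN1 day 7 counts became 0 and 0 with only the groups compared or without control c. Chd3, a helicase subunit of NuRD, was higher in each of the 4 comparisons, by 1.01 ± 0.14 and 0.53 ± 0.14 in DN1 and 1.11 ± 0.14 and 0.56 ± 0.14 in DN3 (adjusted p = 0.000219, 0.0112, 5.14e-05 and 0.00577). On day 7 its call was lost in DN1 in both those settings, and in DN3 without floxed replicate b or control d. Mta3, another subunit, was lower on day 5, by 0.89 ± 0.16 in DN1 and 0.72 ± 0.16 in DN3 (0.00211 and 0.00669), calls lost in both precursors without floxed replicate b. Of 6 CtBP and Sin3 genes, Sin3b alone was lower on day 7 in DN3 (-0.31 ± 0.11, 0.0392), a call that no fit without 1 library kept. Of 5 genes of the Crbn ligase, Rbx1 alone was higher there (0.29 ± 0.09, 0.0256), likewise lost without any 1 library. No other gene of these last lists passed in the 4 comparisons.

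Genes known as regulated by Ikaros in lymphocytes, several of which are also known E protein targets, were lower in floxed cells more often than higher. Of 14 tested (16 listed), 0 were higher and 5 lower on day 5 in DN1, 1 and 4 on day 5 in DN3, 1 and 7 on day 7 in DN1, and 2 and 10 on day 7 in DN3, beside 5.02%, 9.76%, 22.5% and 24.9% of all genes. The 1 higher gene on day 7 in DN1, and that on day 5 in DN3, was lost without either control or floxed replicate b. In the order DN1 day 5, DN3 day 5, DN1 day 7 and DN3 day 7, the median changes were -1.35, -0.67, -1.72 and -3.04, where the medians of all genes lay between -0.01 and 0.00. Without floxed replicate b of day 5, the count lower in DN1 was 0 and in DN3 1. It was 2 or 3 in DN1 without any other day 5 library, and 1 or 2 in DN3 without a control. Rag1, a recombinase subunit, was lower by 6.15 ± 0.47 in DN3 on day 7 (adjusted p = 4.25e-08) and by 4.30 ± 0.50 in DN1 (5.96e-06). The coreceptor genes Cd4, Cd8a and Cd8b1 were lower by 4.70 ± 0.58, 4.58 ± 0.56 and 4.52 ± 0.62 in DN3 on day 7 (adjusted p of 8.08e-06 to 2.41e-05). Dntt, the terminal transferase, was lower by 4.42 ± 0.43 in DN1 on day 7 (9.62e-07). On day 5 in DN3, Dtx1, a Notch pathway gene, was higher by 0.92 ± 0.28 (0.0409).

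Of 9 genes tested (10 listed) that are linked to Helios, Aiolos and Eos in lymphocytes, 3 were higher and 1 lower on day 5 in DN3 (9.76% of all genes, list median -0.03), and 5 and 3 on day 7 (24.9%, median 0.56). In DN1, 0 and 0 passed on day 5 (5.02%, median 0) and 1 and 2 on day 7 (22.5%, median 0.07). The 3 higher genes became 1 without control d or floxed replicate b, and the 5 became 2 without control d. The 1 higher in DN1 was lost with DESeq2, with only the groups compared, and without floxed replicate b or either control. Foxp3, which defines regulatory T cells, was at 7.45 and 17.9 CPM in floxed DN3 cells on day 7 against 0.425 and 0.724 in controls (3 and 7 counts), a change of 4.46 ± 0.85 (adjusted p = 0.00101). Nrp1, a surface protein of regulatory T cells, was lower by 4.37 ± 0.34 (4.98e-08). Prdm1, the repressor Blimp-1, was higher by 2.15 ± 0.47 (0.00213). Markers of NK cells summed to 4302 and 4850 CPM in the same floxed DN3 libraries against 1760 and 2342 in controls, ILC2 markers to 1406 and 1674 against 440 and 532, and the 5 markers of regulatory T cells to 1784 and 1948 against 841 and 922. All 5 of the last were detected in both groups. Foxp3 made up little of that sum in these libraries, so the sum is not a measure of regulatory T cells. In DN1 on day 7 the same sum was lower in floxed cells, at 1116 and 1170 CPM against 1378 and 1416. Of 6 NK markers, 3 to 4 were detected in the floxed and 4 to 5 in the control libraries. Of 12 ILC2 markers, 10 were detected in the floxed and 10 to 11 in the control libraries. The part of these cell types in the family's values was not tested.

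In thymic ILC2 taken from mice, Ikzf3 was higher and Ikzf5 lower than in floxed cultures of day 7. Ikzf3 was at 148 and 157.5 CPM, above all 24 culture libraries, and 1.88 ± 0.35 above floxed DN1 cells (adjusted p = 5.17e-05) and 2.41 ± 0.36 above floxed DN3 cells (3.27e-06). Ikzf5 was at 16.6 and 22.8 CPM, below all 24, by 1.12 ± 0.14 against DN1 (5e-07) and 1.21 ± 0.15 against DN3 (1.54e-07). Pstk, the overlapping gene on the opposite strand, was at 20.99 and 31.1 CPM in these libraries. It was higher than in floxed DN1 cells by 2.78 ± 0.24 (7.95e-10) and than in floxed DN3 cells by 1.65 ± 0.23 (1.16e-06). With the strand setting not given, reads of Ikzf5 and Pstk cannot be told apart, and the part of this in the Ikzf5 value was not tested. Ikzf3 stayed higher when scaled by library totals alone (1.13 and 1.68). That scaling lowers all changes of thymic ILC2, so the Ikzf5 values of -1.85 and -1.93 could only fall and do not check its direction. Over all alternatives Ikzf5 ran from -1.85 to -0.81 against DN1 and from -1.93 to -0.88 against DN3. The fit called 5 of 5 members against DN1 and 4 of 5 against DN3, but 73.7% and 71.8% of all genes were called too. These libraries differ from the cultures in much more than genotype. Their scaling factors were 0.55 and 0.658, and the median of all genes was -0.26 and -0.20, against 0.00 and 0.03 with RLE scaling and -0.99 and -0.92 by library totals.

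The other members depended on that scaling. Ikzf1 was at 234 and 369 CPM, around the 314 and 322.5 of floxed DN1 cells, and its changes of 0.64 ± 0.12 and 0.55 ± 0.12 turned to -0.076 and -0.15 by library totals. Ikzf2 was at 297 and 332.5 CPM, and its changes of 0.70 ± 0.17 and 0.47 ± 0.17 turned to -0.041 and -0.26. Ikzf4, at 7.06 and 8.82 CPM, had differences of 0.99 ± 0.31 from DN1 (adjusted p = 0.0076) and -0.48 ± 0.30 from DN3 (0.161), or 0.23 and -1.21 by library totals. Without thymic replicate 1, the calls of Ikzf4 against DN1 (adjusted p = 0.119) and of Ikzf2 against DN3 (0.0908) were lost, and the latter also without either DN3 library (0.0686 and 0.212). ILC2 markers summed to 836 and 1631 CPM in these libraries. Early T cell markers summed to 1174 and 1214 CPM with all 10 detected, Rag1 among them at 49.9 and 58.3 CPM. Libraries labelled ILC2 thus also held RNA of genes listed as early T cell markers. Which cells it came from, and its part in the family's values, were not tested.

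In the lung, Ikzf3 came second after Ikzf1 by group mean per kilobase, except that in dKO replicate 3 Ikzf2 was at 17.2 CPM per kb and Ikzf3 at 10.1, and the family's sum was larger in Id1 than in dKO ILC2. The summed level was 190 to 287 CPM per kb over 3 Id1 libraries and 56.8 and 152 in the dKO libraries. Ikzf3 was at 362, 693 and 961 CPM in Id1 and at 88.5 and 342 in dKO libraries, without overlap. It was lower in dKO by 1.65 ± 0.50 (3.14-fold, adjusted p = 0.0445), and this was the 1 of 5 members that passed, where 18.1% of all genes did. The call was lost without dKO replicate 3 (adjusted p = 0.18), Id1 replicate 1 (0.125) or Id1 replicate 3 (0.0625), and by library totals (0.127).

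Ikzf1 was at 734, 798 and 947 CPM in Id1 against 164 and 548 in dKO ILC2, without overlap (-1.26 ± 0.43, adjusted p = 0.066). It passed with DESeq2 (0.0153), without a filter (0.0199) and without dKO replicate 1 (0.0155). Ikzf2 was at 235, 428.5 and 487 against 190 and 200 CPM (-0.83 ± 0.35, 0.129). Ikzf4 was at 4.14 to 6.48 CPM against 0.812 and 0.889, from 3 and 5 counts (-2.59 ± 1.18, 0.155), and over both dKO libraries its pooled level was 0.858 CPM (95% exact Poisson interval 0.371 to 1.69). Ikzf5 was at 3.93 to 4.97 against 5.41 and 10.8 CPM (0.85 ± 0.85, 0.529). The dKO libraries differed from each other, with ILC2 markers at 2540 CPM in replicate 3 and 6004 in replicate 1 against 4652 to 7455 in Id1, and Rag1 at 11 and 0 counts. Ikzf1 and Ikzf3 were lower in the replicate with fewer ILC2 markers, and the part of that difference in the comparison was not tested. Both dKO libraries were also above every Id1 library in markers of some other cells. B cell markers were at 17.05 and 48.16 CPM against 0.9185 to 5.066, and NK markers at 22.19 and 37.5 against 0.8882 to 7.348. Stromal markers were at 62.2 and 91.73 against 4.516 to 17.16, and muscle markers at 73.57 and 137.7 against 11.79 to 24.96. Mast cell markers were lower, and the other lists overlapped. The part of such RNA in the lung differences above and below was not tested. Id1 RNA was at 25.6 to 82.5 CPM in Id1 and 0 and 0.271 in dKO libraries. Of the listed genes, Foxp3 was higher in dKO by 3.92 ± 0.89 (0.0272) and Nrp1 lower by 1.65 ± 0.49 (0.0422), and of NuRD Gatad2a and Hdac1 were lower by 1.60 ± 0.42 (0.0296) and 1.43 ± 0.43 (0.0459). Cd8a was higher by 6.51 ± 1.60 (0.0283). Without dKO replicate 3 none of these 5 genes passed. The Foxp3 call was also lost without Id1 replicate 1 or 3, the Nrp1 call without Id1 replicate 1 or 2 and by library totals, the NuRD calls without Id1 replicate 1 or 3 and by library totals, and the Cd8a call without a filter and with a replicate block.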

How the data were processed

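Total RNA was measured by sequencing in 31 libraries. The authors deposited raw counts per gene for 48881 genes in a thymus and a lung table. The mm10 build and DESeq2 are named, without versions, per the submitters' processing notes. For the aligner, counter, annotation and strand setting, the sources used here give no name. Lung Id1 libraries were grouped by title, since the genotype labels of 2 replicates name other Id genes. The labels of DN1 day 7 libraries give 7 as the day of 4-OHT, where the design text gives 4, which was followed.

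Counts were tested with edgeR 4.0.16 in R 4.3.3 (quasi-likelihood F test, TMM scaling, filterByExpr with a minimum count of 10, Benjamini-Hochberg adjustment over all genes tested, threshold 0.05). One fit held the 24 culture libraries (15172 genes), one the 26 thymus libraries, for thymic ILC2 (16391 genes), and one the 5 lung libraries (19371 genes). The SE is the log2 change divided by the square root of F. CPM divide counts by the library total, without TMM factors, and per kb uses the union exon length of GENCODE M21. The fits were tested on simulated data. Likeness used log2 CPM with a prior count of 2. Depth was 3695522 to 13065445 counts, and Poisson intervals cover counting error only.

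All 5 members are named whatever their values. From each list of partners or targets, up to 4 genes that passed are eligible in a comparison, by size of change, and the 3 genes most like each member. Members and lists were chosen with earlier results of these data known. Alternatives were DESeq2 1.42.0, RLE scaling, no low count filter, only the groups compared, leaving out each library and a replicate block. Scaling by library totals only was added after seeing the data. Same-lettered libraries deviated with r of -0.05 to 0.135, over 2 pairs a comparison, so the letters were not taken to pair them.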

Additional observations from a re-analysis of the deposited data

Results flagged for a closer look

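The genotype difference of Ikzf3 on day 7 differed between precursors by a test of the difference itself. It was 5.58 ± 0.69 (log2) larger in DN1 than in DN3 (edgeR, adjusted p = 7.48e-05), from 66.2 and 73.5 against 1.70 and 0.499 CPM in DN1, and 45.9 and 49.5 against 36.4 and 37.1 CPM in DN3. Its cause was not tested.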

How the results depend on the processing

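Over 95 member results and 988 alternatives, 917 kept their side of the threshold, 35 lost the call, 32 gained one and 4 called values turned sign. Among the 917, 35 values turned sign without being called on either side, such as Ikzf3 in DN1 on day 4 (2.34, or -1.53 without floxed replicate a). The 4 called values turned with scaling by library totals, in thymic ILC2: Ikzf1 at -0.076 against DN1 and -0.15 against DN3 floxed cells, and Ikzf2 at -0.041 and -0.26. Ikzf1 in DN1 lost its call on day 5 without a filter (0.33) or with only the groups compared (0.34), and on day 7 without a filter (0.24), by library totals (0.21) or with only the groups compared (0.27). Leaving out 1 library gave 0.21 to 0.43 on day 5 and 0.22 to 0.30 on day 7. Ikzf5 in DN1 on day 7 lost its call with only the groups compared (-0.45), and ran from -0.59 to -0.33 with 1 library left out. Ikzf3 in DN3 on day 7 gained one with only the groups compared (0.44). In the lung, Ikzf1 gained one with DESeq2 (-1.13) and without a filter (-1.44), and ran from -2.02 to -0.76 with 1 library left out. Lung Ikzf3 lost its call by library totals (-1.62) and ran from -2.56 to -1.10. The causes were not tested. A lone library left in a group is assumed to vary like the other groups. The replicate block changed 1 of 55 member results, the precursor difference of Ikzf4 on day 7 (-1.31 against -1.30). No block could be fitted for floxed against control, which share no letters.

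The number of genes called among all tested moved by over 1.5 times with at least 1 library left out in every comparison but DN1 against DN3 controls on day 4 and those of thymic ILC2. For floxed against control, 16 became 8 to 38 and 67 became 30 to 41 on day 4 in DN1 and DN3, 761 became 225 to 685 and 1481 became 449 to 1203 on day 5, and 3412 became 1688 to 5803 and 3775 became 2149 to 2878 on day 7. The change from day 4 to day 7 went from 1180 to between 578 and 3748 in DN1 and from 1866 to between 984 and 1744 in DN3, and the precursor difference from 207 to between 56 and 149 on day 5 and from 1182 to between 497 and 3150 on day 7. For day 7 against day 5, 1988 became 703 to 1025 in DN1 controls, 3256 became 1458 to 5458 in floxed DN1, 3073 became 1535 to 1990 in DN3 controls and 3717 became 2149 to 3058 in floxed DN3. DN1 against DN3 controls on day 7 went from 3431 to between 2040 and 2275, and the lung from 3499 to between 183 and 5774. With only the groups compared, DN1 counts became 38 (day 4), 798 (day 7), 421 (change from day 4), 4261 (controls over time) and 133 (floxed over time), and the day 7 precursor difference 369. Without a filter the counts became 229 and 257 on day 4, 1882 for the DN1 change, and 536 and 1900 for the precursor differences. DESeq2 called 45 on day 4 in DN1, 355 for the day 5 precursor difference and 6396 in the lung. Ikzf3 in DN1 and Ikzf4 in lung dKO ILC2 rest on few counts, which limits the size of their folds.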
